A study of Mus musculus with 12 samples.

Results

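Reduced representation bisulfite sequencing of bone marrow cells yielded 72 tiles of 1000 bp whose methylation was higher in every library labelled leukemic than in any other library. They were chosen from 81162 tested tiles. A tile was tested where it held at least 3 autosomal CpGs with at least 10 reads in all 12 libraries, both strands of a CpG being added. A tile was taken where the lowest of the 3 leukemic libraries lay at least 3 percentage points above the highest of the 9 others. These leukemic-high tiles made up 0.0887% of the tested tiles, and the mirrored rule (every leukemic library at least 3 points below all others) found 3315. Because the methylation of all 12 libraries chose the tiles, their leukemic difference is given as a description and carries no test.

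The cells were LSK cells (Lin- Sca1+ cKit+), the fraction of bone marrow that holds stem cells and early progenitors, sorted from C57BL/6 mice 6 months old. The 4 groups had 3 libraries each. They were Nras(G12D), an activating change in the signalling GTPase Nras; Tet2(-/-), loss of a dioxygenase that oxidises methylcytosine; Tet2(-/-) Nras(G12D) without leukemia (the nonleukemic double mutant); and Tet2(-/-) Nras(G12D) with leukemia (the leukemic double mutant). The leukemic group was read from the prefix L of the titles and from the series design. Its libraries also carry the tag TN_BMT, whose meaning was not established here. A handling particular to this group cannot be told apart from leukemia. All alleles were conditional and specific to hematopoietic tissue, per the design, and the driver of recombination is not given in the sources used here. Wild-type libraries were not analysed here. The labels do not say that replicates were separate animals, so the spread between libraries may be technical in part. Listed Y chromosome positions numbered 360, 251 and 6 in Tet2(-/-) replicates 1 to 3 and 349, 2 and 5 in the nonleukemic double mutant. Each of these groups thus held libraries with many and with few Y positions. The part of this difference in the spread was not tested. A level is a share of reads, so a change within cells cannot be told apart from a change in the mix of cells or alleles. The assay holds no expression values, so the sorted cells were not checked against marker genes.

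DNA methylation in mammals sits mainly on the cytosine of CpG dinucleotides, where DNA methyltransferases place and copy it. TET enzymes oxidise methylcytosine, a step toward its removal. Most of the genome's CpGs are methylated, while dense clusters of CpGs at gene starts, the CpG islands, are usually free of methylation. The bases that flank an island are called its shore, and gains of methylation at islands and shores together with losses elsewhere are a known feature of cancer cells. The restriction enzyme used here cuts at CpG-containing sites, so CpG-dense sequence is over-represented.

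Gene names come from RefSeq promoter sequences (GRCm38.p6), which were placed on the deposited mm9 positions by the spacing of their CpGs, with at least 10 listed CpGs and every one of them on a CG of the promoter. A search of 32851 promoter sequences from all chromosomes within 50 kb of each tile gave 106 placements. Each was at 1 position, and all were on the tile's own chromosome. A promoter near more than 1 tile counts once for each tile. A placed start lay near 43 of the 72 tiles, and none was placed near the other 29. Distances run from the start to the nearest tested CpG of the tile. Exon, intron and UTR positions need an annotation of mm9 and are not given. Promoters of 4 genes are shown as examples of a leukemic-high tile downstream of a start within 5 kb, with the promoter's own CpGs measured in the same libraries. Each is the 250 bases before the start, and capitals mark the CpGs tested in all libraries.
Cbfa2t3: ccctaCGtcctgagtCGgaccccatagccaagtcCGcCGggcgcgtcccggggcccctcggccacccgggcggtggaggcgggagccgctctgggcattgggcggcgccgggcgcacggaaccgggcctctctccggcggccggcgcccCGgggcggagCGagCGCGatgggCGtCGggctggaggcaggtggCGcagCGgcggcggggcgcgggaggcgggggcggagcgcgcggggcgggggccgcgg
Trim47: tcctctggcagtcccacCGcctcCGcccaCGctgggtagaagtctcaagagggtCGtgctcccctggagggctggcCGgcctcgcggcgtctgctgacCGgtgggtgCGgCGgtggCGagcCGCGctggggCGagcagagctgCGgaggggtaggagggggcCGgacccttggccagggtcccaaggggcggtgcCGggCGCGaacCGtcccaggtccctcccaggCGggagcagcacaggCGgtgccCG
Ctdsp2: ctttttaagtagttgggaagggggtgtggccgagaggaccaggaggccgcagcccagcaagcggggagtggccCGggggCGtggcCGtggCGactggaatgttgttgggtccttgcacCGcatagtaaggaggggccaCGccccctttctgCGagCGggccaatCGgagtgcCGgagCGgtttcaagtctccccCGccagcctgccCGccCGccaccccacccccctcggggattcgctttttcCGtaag
Frmd8: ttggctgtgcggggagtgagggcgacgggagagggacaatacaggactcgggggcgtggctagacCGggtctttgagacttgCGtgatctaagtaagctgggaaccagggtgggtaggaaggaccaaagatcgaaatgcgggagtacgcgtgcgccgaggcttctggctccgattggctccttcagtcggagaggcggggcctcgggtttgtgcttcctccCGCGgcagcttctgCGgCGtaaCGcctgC
The matched mm9 windows are chr8:125202076-125202325 (minus strand) for Cbfa2t3, chr11:115971550-115971799 (minus) for Trim47, chr10:126415523-126415772 (plus) for Ctdsp2 and chr19:5875209-5875458 (minus) for Frmd8. The Cbfa2t3 stretch holds 43 CpGs, of which 12 were tested, and Trim47 25 with 21 tested. Ctdsp2 has 20 with 15 tested, and Frmd8 22 with 7 tested. The 4 promoters were nearly free of methylation in every library. The level over the capital CpGs was at most 1.76% for Cbfa2t3, 2.38% for Trim47, 0.706% for Ctdsp2 and 0.161% for Frmd8.

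The leukemic-high tiles were mostly unmethylated or partly methylated in the 9 other libraries. Their baseline, the mean of those 9 libraries, had a median of 15.2% (quartiles 4.18% and 38.5%), against 87.4% over all tested tiles. In the leukemic libraries the median was 39.3%. The leukemic mean exceeded the mean of the others by a median of 21.3 points (4.71 to 43.7 points), while over all tested tiles the median difference was -1.98 points. Of the 72 tiles, 29 had a leukemic mean over 50%. A ceiling enters the rule, since a tile whose highest other library is above 97% cannot pass. Among the 44630 tiles under that ceiling the median baseline was 5.36% and the median leukemic difference -0.251 points. The quartiles of that baseline, 0.377% and 71.9%, lie outside those of the leukemic-high tiles on both sides.

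**Figure D1:**
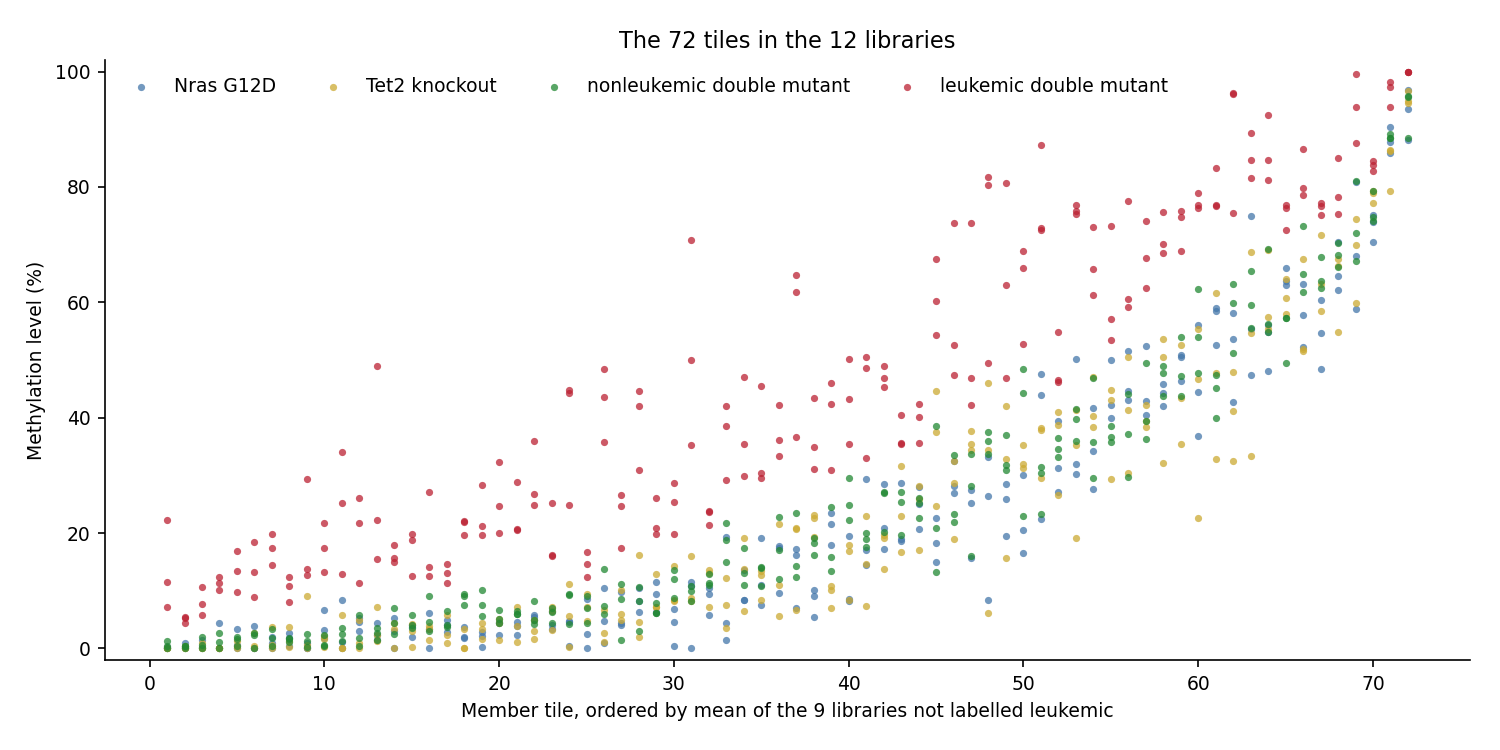
Methylation level in percent (y axis) of the 72 leukemic-high tiles in the 12 libraries, with 1 point per library coloured by group and tiles ordered by the mean of the 9 libraries not labelled leukemic (x axis). The leukemic points lie above all others in each tile, as the rule requires, with a median difference of 21.3 points, and most tiles are under 40% in the other libraries.

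By baseline class, 41 of the 72 tiles (56.9%) were under 20% in the other libraries, a class that holds 32.2% of all tested tiles. A further 29 (40.3%) were at 20 to 80%, a class with 12.4% of all tiles. Only 2 (2.78%) were over 80%, where 55.4% of all tiles lie. In 23 tiles all 9 other libraries were under 10%. As a share of each class, the leukemic-high tiles were most frequent at a baseline of 20 to 40%, with 13 of 2347 tiles (0.554%), and nearly as frequent at 10 to 20%, with 10 of 1933 (0.517%). The share was 0.426% at 5 to 10%, 0.459% at 40 to 60%, 0.0996% under 5% and 0.0942% at 60 to 80%. The mirrored, lower tiles had another profile: 0% of the tiles under 5%, 4.30% at 20 to 40% and 7.67% at 60 to 80%. Below a baseline of 10% there were 31 leukemic-high tiles and 2 lower ones, a contrast that the floor at 0% limits, because a tile near 0 cannot fall by 3 points. At 20 to 80%, where neither floor nor ceiling acts on most tiles, 29 tiles were higher and 673 lower.

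**Figure D2:**
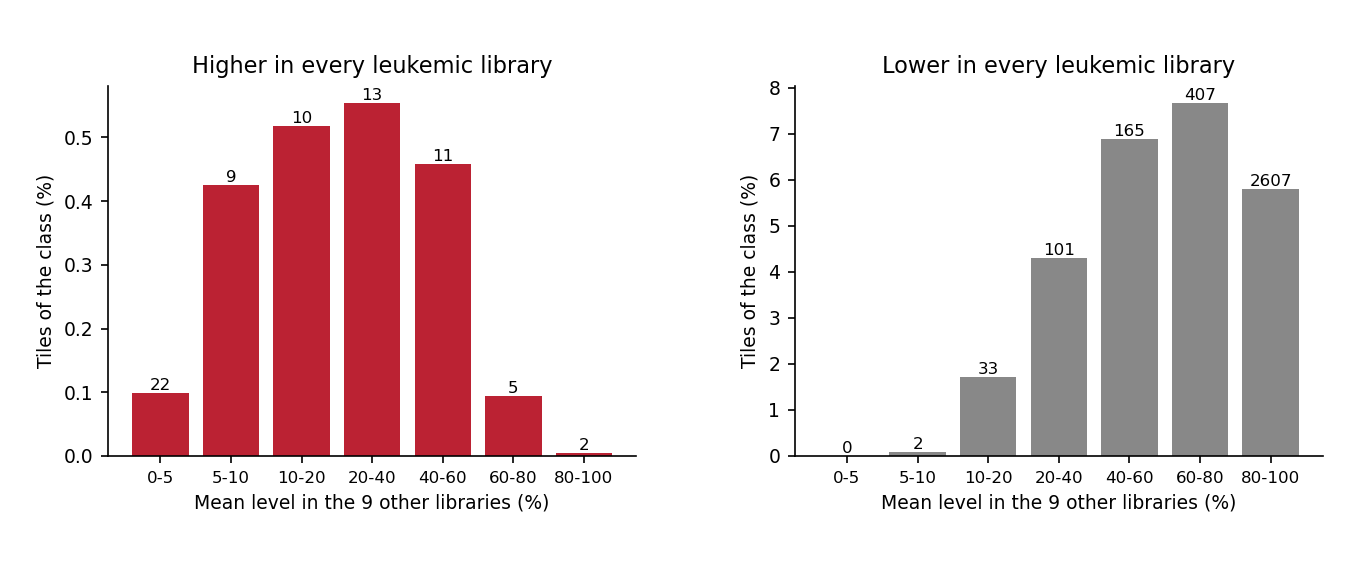
Share of tested tiles (y axis, percent of the class) that were higher in every leukemic library (left) or lower in every leukemic library (right), by the mean level in the 9 other libraries (x axis, percent), with the number of tiles above each bar. The higher tiles reach 0.554% of the 20 to 40% class and the lower tiles 7.67% of the 60 to 80% class, and the y axes differ.

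Few leukemic-high tiles were dense in CpGs. They had a median of 4.5 tested CpGs (highest 23), against 7 among the tiles under the ceiling and 5 among all tiles. Exactly 36 of the 72 (50.0%) had 3 or 4 CpGs, and 9 (12.5%) had at least 10, against 30.04% and 42.3% of the tiles under the ceiling and 46.4% and 24.9% of all tested tiles. The share with 3 or 4 CpGs was thus near that of all tiles, and it was higher among other tiles at a baseline of 20 to 80% (57.1%) and among the mirrored, lower tiles (63.0%). A tile was called island-like where it had at least 10 CpGs and a baseline under 10%. This held for 6 leukemic-high tiles (8.33%) and for 37.2% of the tiles under the ceiling. An island-like tile lay directly beside 5 of the leukemic-high tiles (6.94%, against 30.2%) and within 5 kb of 14 (19.4%, against 38.1%), and the median distance to one was 19500 bp against 15000 bp. Over all tested tiles that distance was 28000 bp, over other tiles at 20 to 80% 32000 bp and over the lower tiles 37000 bp. Over other tiles under the ceiling with a baseline under 20%, the class of 41 of the 72, it was 2000 bp. Of these other tiles, 63.6% were island-like, 47.8% lay directly beside such a tile and 13.5% had 3 or 4 CpGs. The leukemic-high tiles were thus farther from island-like tiles than this low set and all tiles under the ceiling. By the median distance they were nearer than the remaining sets, but not all shares went that way. An island-like tile lay directly beside 17.01% of all tested tiles and 8.55% of other tiles at 20 to 80%, both above 6.94%. This share was 3.11% for the lower tiles. Within 5 kb the shares were 24.5% of all tested tiles, 17.97% at 20 to 80% and 11.7% of the lower tiles, against 19.4%.

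The rule makes no allowance for the number of CpGs or reads of a tile. The share of tiles under the ceiling that met the rule was 0.268% with 3 or 4 CpGs, 0.219% with 5 to 9 and 0.0477% with 10 or more. The order was not the same in every baseline class. Under 5% the share of tiles was 0.607% with 3 or 4 CpGs, 0.0732% with 5 to 9 and 0.0319% with 10 or more. At 5 to 20% these shares were 0.567%, 0.661% and 0.207%, and at 20 to 80% they were 0.242%, 0.423% and 0.105%. Tiles with 5 to 9 CpGs thus had the highest share in both. The shares rest on few tiles: 14, 3 and 5 under 5%, 7, 9 and 3 at 5 to 20%, and 14, 14 and 1 at 20 to 80%. The difference in order between the classes was not tested. The median difference was 21.9 points in the 36 tiles with 3 or 4 CpGs, 21.3 points in the 27 with 5 to 9 and 14.0 points in the 9 with at least 10. The part of read depth in the order of these shares was not tested.

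Among tiles with at least 5 CpGs, the 8 with the widest gap between the lowest leukemic and the highest other library fell into an unmethylated and a partly methylated set. The tile at chr15:82030000-82030999 (5 CpGs) had the widest gap, 22.1 points. It read 4.69%, 10.5% and 1.03% in the Nras(G12D) libraries, 1.19%, 2.67% and 6.59% in Tet2(-/-), 7.29%, 5.91% and 13.8% in the nonleukemic and 35.8%, 43.7% and 48.4% in the leukemic double mutants. The highest of the 9 others was a nonleukemic double mutant, and each of the 5 CpGs separated the leukemic libraries from all others. The nearest placed start, 12891 bp away, is that of Shisa8, a membrane protein of the Shisa family. The tile at chr10:81027000-81027999 (5 CpGs) also started low, at 10.5%, 6.28% and 8.22% in Nras(G12D), 2.01%, 4.62% and 16.2% in Tet2(-/-) and 8.26%, 10.6% and 3.08% in the nonleukemic double mutant, with 31.0%, 42.0% and 44.7% in the leukemic libraries. Its gap was 14.8 points, and the start of Tle2, a corepressor of the Groucho family, lay 10891 bp away, with the tile upstream of it.

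Another low tile, chr5:115256000-115256999 (10 CpGs), was island-like. Nras(G12D) read 5.81%, 5.01% and 5.50%, Tet2(-/-) 2.99%, 1.59% and 4.92%, the nonleukemic double mutant 8.21%, 4.94% and 4.29%, and the leukemic double mutant 24.9%, 35.9% and 26.8%. All 9 others were under 10%, and the gap to the lowest leukemic library was 16.7 points. The start of Ankrd13a, a ubiquitin-binding ankyrin repeat protein, was placed 30959 bp away.

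The other 5 of the 8 were partly methylated at baseline. At chr10:79409000-79409999 (6 CpGs) the other groups were at 22.2% ± 5.73, 17.5% ± 3.21 and 24.7% ± 3.91 (Nras(G12D), Tet2(-/-) and nonleukemic, SD, n = 3 each) and the leukemic libraries at 47.1% ± 1.88 (SD, n = 3). At chr9:37210000-37210999 (6 CpGs) the same groups were at 34.5% ± 7.07, 41.9% ± 4.59 and 37.4% ± 8.77, and the leukemic libraries at 66.7% ± 5.93 (SD, n = 3 each). The leukemic libraries had the smallest SD of the 4 groups at the first of these tiles and not at the second. At chr2:115603000-115603999 (7 CpGs) the levels were 44.0% ± 1.91, 45.5% ± 11.6 and 46.9% ± 2.77 against 71.4% ± 3.75. Its gap went from 14.9 points to 2.32 with the levels of its CpGs averaged and to 2.48 with coverage thinned, under the 3 points of the rule. At chr8:125047000-125047999 (6 CpGs) they were 49.3% ± 2.53, 43.8% ± 8.51 and 48.3% ± 5.15 against 73.2% ± 3.73. The start of Piezo1, a mechanically gated cation channel, was placed 27729 bp from that tile.

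The remaining tile of the 8, chr11:115969000-115969999 (7 CpGs), lies 1830 bp downstream of the Trim47 start, whose promoter is printed above. Trim47 is a ubiquitin ligase of the tripartite motif family. The tile read 58.5%, 59.1% and 52.6% in Nras(G12D), 32.9%, 47.8% and 61.5% in Tet2(-/-), 47.5%, 45.1% and 40.03% in the nonleukemic and 76.8%, 76.7% and 83.2% in the leukemic double mutants. Its 3 Tet2(-/-) libraries were the most spread, and 1 of them was the highest of the 9. Its gap was 15.1 points, and 3.01 with CpG levels averaged. The promoter stayed at or under 2.38% in all 12 libraries, so the tile and its promoter had unlike levels in every group.

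**Figure D3:**
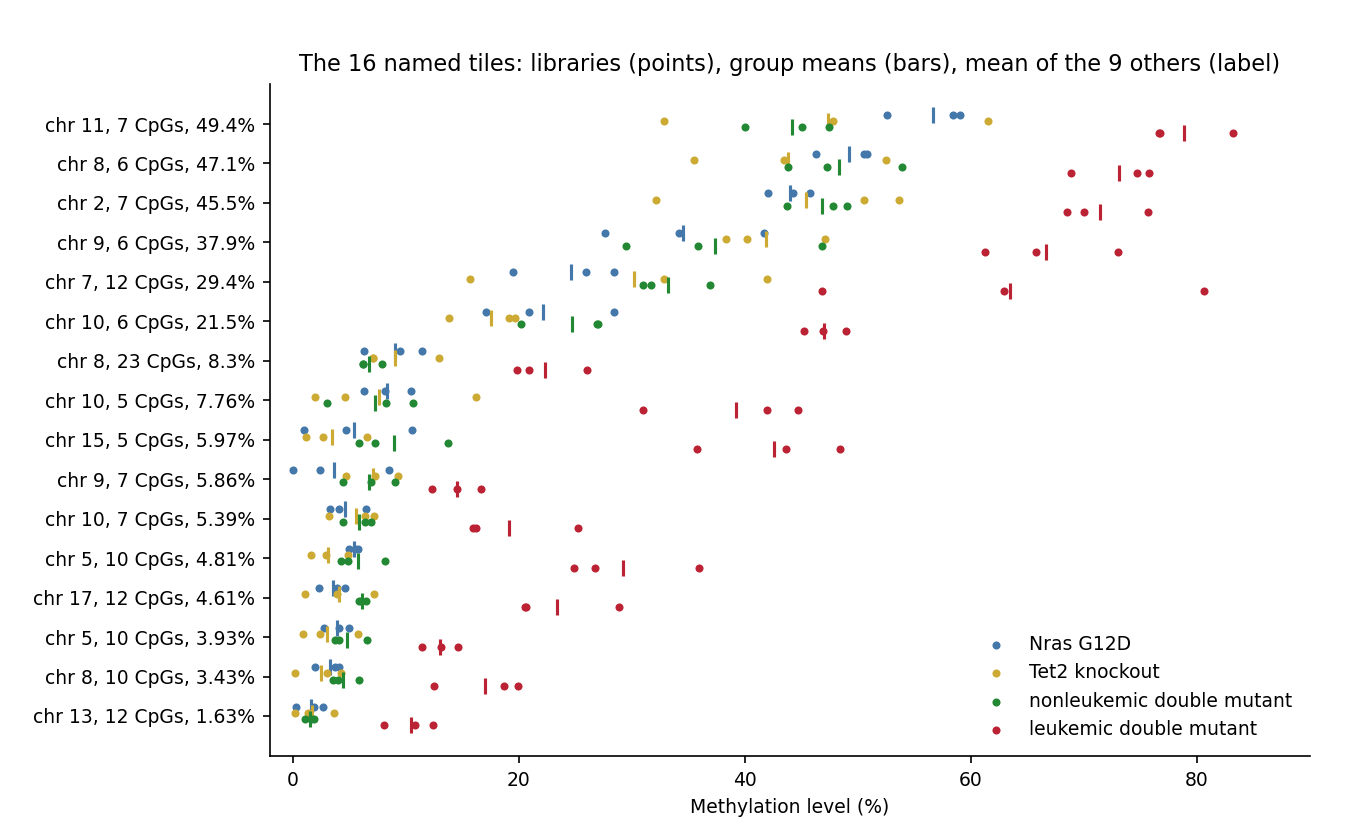
Methylation level in percent (x axis) of 16 leukemic-high tiles chosen by rule (y axis, with chromosome, number of tested CpGs and mean of the 9 other libraries), where points are libraries, vertical bars group means and colours the 4 groups. The leukemic points are to the right of all others, from 8.07% in the lowest tile to 83.2% in the highest.

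Several tiles with at least 7 CpGs were under 10% in all 9 other libraries. The tile at chr17:28435000-28435999 (12 CpGs) read 2.30%, 4.63% and 3.92% in Nras(G12D), 3.89%, 1.09% and 7.23% in Tet2(-/-), 6.47%, 6.02% and 5.91% in the nonleukemic and 20.6%, 28.9% and 20.6% in the leukemic double mutants. The start of Fance, a core protein of the Fanconi anemia DNA repair pathway, was placed 15086 bp away, with the tile upstream of it. The tile at chr13:64003000-64003999 (12 CpGs) had 0.345%, 1.87% and 2.65% in Nras(G12D), 0.176%, 3.65% and 1.34% in Tet2(-/-) and 1.67%, 1.07% and 1.90% in the nonleukemic double mutant, against 8.07%, 10.9% and 12.5%. This was the lowest leukemic level among the 16 tiles shown, and still above all 9 others by 4.42 points. Further tiles with all 9 others under 10% were chr10:80789000-80789999 (7 CpGs, 5.39% in the others and 19.2% ± 5.30 in the leukemic libraries, SD, n = 3) and chr5:136879000-136879999 (10 CpGs, 13.1% ± 1.59 in the leukemic libraries, SD, n = 3). The nearest start to the first is that of Cactin, an RNA splicing factor, 5628 bp away. The last of the 6 named for such a baseline, chr9:44954000-44954999 (7 CpGs), had 14.5% ± 2.14 in the leukemic libraries (SD, n = 3) and up to 9.36% in the others. Its gap of 3.01 points went to 2.97 with CpG levels averaged and to 2.31 with coverage thinned, under the 3 points of the rule. With coverage thinned, the gap at chr13:64003000-64003999 was 2.97 points.

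The tile at chr8:123029000-123029999 (10 CpGs) was the only one of the 16 whose gap fell below 0 in an alternative. It read 4.06%, 3.79% and 1.99% in Nras(G12D), 3.03%, 0.246% and 4.30% in Tet2(-/-), 3.57%, 5.86% and 4.01% in the nonleukemic and 12.5%, 19.9% and 18.7% in the leukemic double mutants. When each CpG was thinned to equal coverage in all libraries, its gap went from 6.67 to -3.54 points, so that the leukemic libraries overlapped with the others.

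The tile with the most CpGs was also the nearest to its start among the 43 tiles with a placed start. At chr8:125201000-125201999, 23 CpGs were tested, 88 to 999 bp downstream of the start of Cbfa2t3, a corepressor of the ETO family that acts in blood stem and progenitor cells. The tile read 6.30%, 11.4% and 9.48% in Nras(G12D), 7.12%, 12.9% and 7.15% in Tet2(-/-), 6.19%, 7.88% and 6.19% in the nonleukemic and 26.1%, 19.9% and 20.9% in the leukemic double mutants. The reads behind these levels numbered 1076 to 4028 per library. The difference was not even along the tile. Between 88 and 134 bp from the start, leukemic means were at most 7.77%, with up to 22.1% in a single leukemic library. The promoter printed above was at most 1.76% in any library. From 241 bp on, 12 CpGs had a leukemic mean over 20%. At 314 bp the means were 38.4% in the leukemic libraries and 6.52% in the others, and at 999 bp 70.1% and 29.0%. Of the 23 CpGs, 19 had the higher mean in the leukemic libraries and 6 separated them from all 9 others. Outside the tile, the CpG at 1514 bp was at 81.7% and 26.2%, while at 2114 bp both sets were over 90%. Within the tile, the mean first exceeded 20% at 241 bp in the leukemic libraries and at 860 bp in the others. No CpG was tested between 134 and 241 bp or between 366 and 860 bp. The distance at which either set passed 20% is therefore not resolved.

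**Figure D4:**
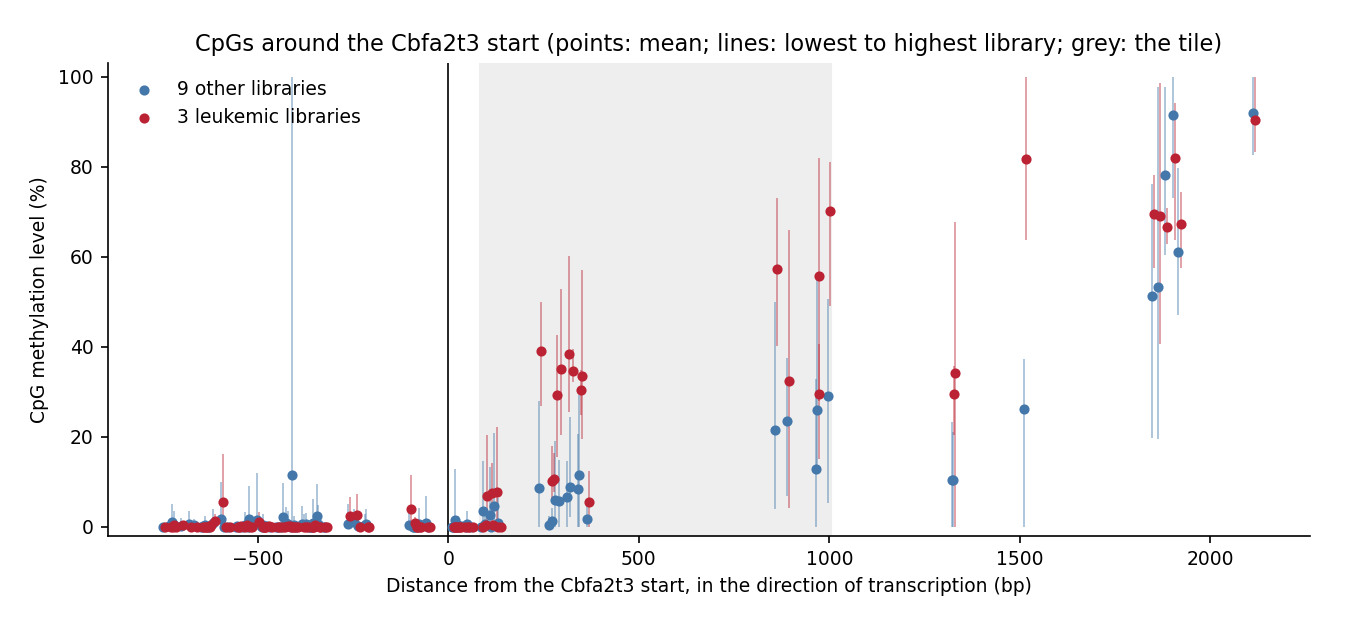
CpG methylation in percent (y axis) against the distance from the Cbfa2t3 start in the direction of transcription (x axis, bp), for CpGs with at least 10 reads in all libraries, with means (points) and lowest to highest library (lines) of the 3 leukemic (red) and 9 other libraries (blue). The tile is shaded, and within it the leukemic means go from near 0 at 88 bp to 70.1% at 999 bp, against 29.0% in the others.

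The other placed starts were mostly farther away. The nearest placed start was within 1 kb for 2 tiles, within 5 kb for 9 and within 10 kb for 14, of which 10 tiles lay downstream and 4 upstream of it. The median distance over the 43 tiles was 15086 bp. For 12 of the 14 the promoter had tested CpGs, and in 11 of these it was under 5% in every library. Placement needs at least 10 listed CpGs and so favours CpG-dense promoters, which are usually unmethylated, and the share in other promoters was not computed. The exception was the promoter of Tpi1, the glycolytic enzyme triosephosphate isomerase, with 7.57% in 1 leukemic library and at most 0.806% in the 9 others over 5 CpGs. Its tile, chr6:124768000-124768999 (3 CpGs), lay 3853 bp upstream and read 60.7% ± 6.57 in the leukemic libraries against 18.6% ± 3.76 in Nras(G12D), 35.6% ± 10.04 in Tet2(-/-) and 24.2% ± 12.98 in the nonleukemic double mutant (SD, n = 3 each).

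Downstream of Ctdsp2, a small phosphatase of the RNA polymerase II tail, lay a tile with 1 of the 2 widest gaps of all 72. The tile at chr10:126419000-126419999 (4 CpGs), 3970 bp from the start, read 22.4%, 47.5% and 43.9% in Nras(G12D), 38.3%, 29.6% and 37.8% in Tet2(-/-), 31.5%, 23.3% and 30.4% in the nonleukemic and 72.8%, 87.2% and 72.5% in the leukemic double mutants. Its gap was 25.03 points, although the other libraries themselves ran from 22.4% to 47.5%. The other tile with a gap of 25.03 points, chr10:60959000-60959999 (3 CpGs), lay 20517 bp from the placed start of Lrrc20 and read 76.8%, 75.2% and 75.9% in the leukemic libraries, against 19.2% to 50.2% in the others. Frmd8 encodes a FERM domain protein that binds the iRhom proteins. Its tile at chr19:5871000-5871999 (3 CpGs), 4025 bp downstream, read 10.9%, 11.5% and 0% in Nras(G12D), 8.79%, 8.25% and 16.1% in Tet2(-/-), 10.8%, 8.20% and 9.96% in the nonleukemic and 35.2%, 70.8% and 50.0% in the leukemic double mutants. The 3 leukemic libraries differed from one another there more than the 9 others did.

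On chromosome 7, 3 leukemic-high tiles lay within 297 kb. The tile at chr7:25740000-25740999 (12 CpGs) lay 837 bp upstream of the predicted gene Gm36809 and read 19.5%, 26.0% and 28.5% in Nras(G12D), 15.7%, 32.9% and 42.0% in Tet2(-/-), 37.0%, 31.8% and 31.0% in the nonleukemic and 80.7%, 46.8% and 63.0% in the leukemic double mutants. All 12 of its CpGs had the higher mean in the leukemic libraries. Upstream of Homer3, a scaffold protein, the tile at chr8:72803000-72803999 (4 CpGs) read 57.9% ± 13.9 in the leukemic libraries (SD, n = 3) against 26.3% to 29.2% in the means of the other groups. Upstream of Pqlc3, a protein with PQ-loop repeats, the tile at chr12:17009000-17009999 (4 CpGs) read 85.2% ± 3.98 against 52.3% to 60.2% (SD, n = 3). Besides that of Cactin, the nearest starts of a tile at 5 to 10 kb were those of Nfe2l1, Scn4b, Tedc1 and Txnrd1. Nfe2l1 is a transcription factor of proteasome genes, Scn4b a sodium channel subunit and Txnrd1 a thioredoxin reductase. Starts of Gm38560 and Spsb2 were also placed in that range, each near a tile with a nearer start.

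Within the tiles, single CpGs mostly had the direction of their tile. Of 400 CpGs in the 72 tiles, 359 (89.8%) had the higher mean in the leukemic libraries, against 26.8% of all tested CpGs, and 115 (28.8%) separated the leukemic libraries from all others, against 0.143% of all. Every CpG had the higher leukemic mean in 43 tiles, and every CpG separated the libraries in 3. These CpGs made up the tile values, so they describe how evenly the difference was spread over a tile. A further 46 CpGs in 19 tiles had failed the coverage minimum in some library and took no part in the choice. The leukemic mean was higher at 35 of these 46. They lie inside the chosen tiles and can share reads with the CpGs that chose them. The share at like CpGs in other tiles was not computed, so this count is a description too. Both strands were read in 64 tiles. The leukemic mean was higher on both strands in 62 of them, and the libraries separated on both in 11. The strands were added to give the values that chose the tiles, so these counts describe the same reads. The tested CpGs of a tile spanned a median of 157.5 bp (18 to 912 bp) and fell into a median of 2 blocks with over 50 bp between them, so many tiles rest on few stretches of sequence. Each tile had 71 to 4028 reads per library.

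Directly beside the tiles the median difference was near 0. Tiles with at least 1 tested CpG directly beside a leukemic-high tile had median leukemic differences of -0.350 points on the lower-coordinate side (25 tiles, 12 with the higher leukemic mean) and 0.516 points on the other side (21 tiles, 11 higher). Every leukemic library lay above all others in 2 of these 25 tiles and in 2 of the 21. The like share over all tiles with at least 1 tested CpG was not computed. From 2 to 5 kb away the medians ran from -8.66 to 0.702 points. Over all 138731 such tiles the median was -2.81 points, and 27.0% had the higher leukemic mean. No leukemic-high tile lay directly beside another.

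**Figure D5:**
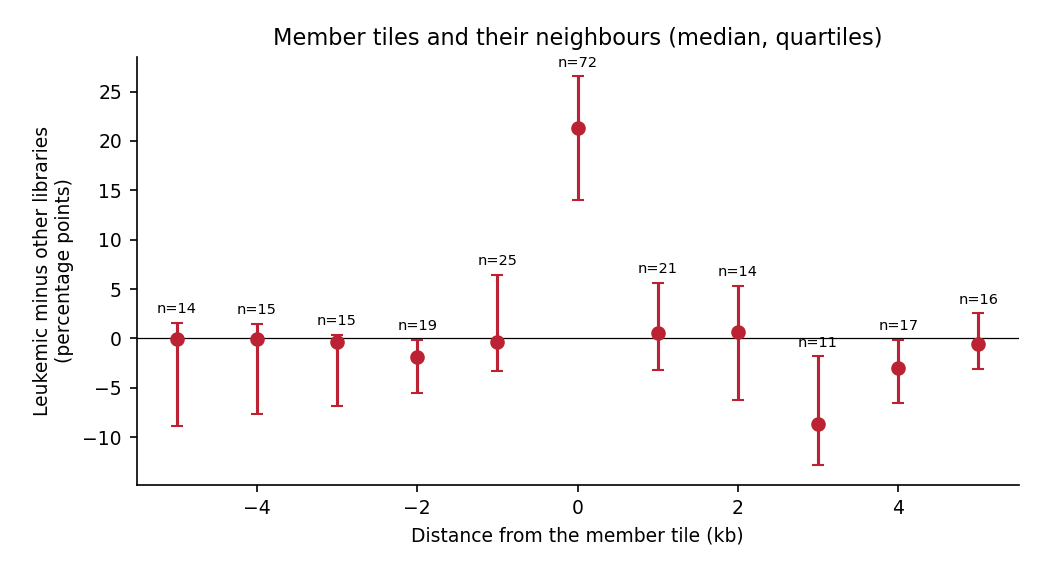
Leukemic mean minus the mean of the 9 other libraries in percentage points (y axis) at the leukemic-high tiles (0) and at tiles up to 5 kb on either side (x axis, kb), as median with quartiles and the number of tiles with at least 1 tested CpG. The median is 21.3 points at the tiles and between -8.66 and 0.702 points at all other distances.

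The tiles lay in well-covered parts of the genome. The median number of tested tiles within 500 kb on each side was 86.5, against 57 over all tested tiles. A mirrored, lower tile lay within 10 kb of 10 leukemic-high tiles (13.9%, against 7.67% of all tiles), and another leukemic-high tile within 1 Mb of 20 (27.8%, against 11.97%). The part of the density of tested tiles in both shares was not tested. Every autosome held at least 1 leukemic-high tile. Chromosome 10 had 9 (0.211% of its tested tiles) and chromosome 12 had 7 (0.213%), while chromosomes 1, 4 and 16 had 1 each.

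In the other 3 groups the leukemic-high tiles had similar levels. The mean over the 72 tiles was 22.9% ± 0.763 in Nras(G12D), 23.1% ± 1.72 in Tet2(-/-), 24.8% ± 0.436 in nonleukemic and 45.2% ± 1.56 in leukemic double mutants (SD, n = 3 each). By library these means were 22.4%, 22.4% and 23.7% in Nras(G12D), 21.5%, 23.0% and 24.9% in Tet2(-/-), 25.2%, 24.9% and 24.3% in the nonleukemic and 43.4%, 45.9% and 46.3% in the leukemic double mutants. The nonleukemic libraries lay above those of Nras(G12D) and overlapped with Tet2(-/-). Over all tested tiles the order was another one: the group means were 59.0% ± 0.288, 60.3% ± 0.393, 59.7% ± 0.0839 and 55.5% ± 1.15 (SD, n = 3 each), with the leukemic group lowest.

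Per tile, the nonleukemic double mutant exceeded Nras(G12D) in 53 of the 72 tiles by a median of 1.61 points, while 57.6% of all tested tiles were higher in it. It exceeded Tet2(-/-) in 50 of 72, with a median of 0.797 points, against 42.6% of all tiles. Tet2(-/-) exceeded Nras(G12D) in 30 of 72, with a median of -0.276 points, against 62.2% of all tiles. The nonleukemic double mutant had the highest of the 3 group means in 42 tiles (58.3%, against 29.6% of all tiles), Nras(G12D) in 17 (23.6%, against 24.2%) and Tet2(-/-) in 13 (18.1%, against 46.1%). The rule bears on these counts, because a high library in any of the 9 keeps a tile out. The 3 comparisons also share libraries.

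Few tiles separated the libraries of the other groups. The nonleukemic libraries were all above Nras(G12D) in 10 tiles (13.9%, with 8.45% of all tested tiles) and all below in 3 (4.17%, with 3.58%). Against Tet2(-/-) they were all above in 8 (11.1%, with 4.15% of all) and all below in 3 (4.17%, with 7.07%). Tet2(-/-) was all above Nras(G12D) in 6 (8.33%, with 8.94% of all) and all below in 2 (2.78%, with 2.49%). A quasi-binomial test of the reads over the 9 libraries, with limma's moderation of the dispersion, called 0 of the 72 tiles in each of the 3 comparisons (a call needs 10 points or more and an adjusted p under 0.05), with 0% of all tested tiles called. At an unadjusted p under 0.05 there were 4 tiles for Tet2(-/-) against Nras(G12D), 6 for the nonleukemic double mutant against Nras(G12D) and 7 for it against Tet2(-/-) (5.56%, 8.33% and 9.72%), against 10.3%, 5.44% and 6.45% of all tiles, and limma on log2 ratios of reads also called 0 of the 72. The rule used the highest of these 9 libraries, so the counts describe the chosen tiles, and the lack of calls does not show that the groups have equal levels.

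The leukemic libraries did not contribute evenly. The leukemic double mutant replicate 1 was the lowest of its group in 32 tiles, replicate 2 in 21 and replicate 3 in 19. Replicate 1 also had the most reads, a median of 737 per tile, against 509.5 and 512.5 in the other leukemic libraries and 379 to 562 in the 9 others. Among the 9 others, the highest library was Tet2(-/-) replicate 3 in 13 tiles and the nonleukemic double mutant replicate 2 in 12, and Nras(G12D) replicate 1 in only 3. Per tile, the leukemic mean exceeded Nras(G12D) by a median of 21.6 points, Tet2(-/-) by 22.0 and the nonleukemic double mutant by 19.2.

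The same rule with each other group in the place of the leukemic one found 10 tiles higher and 26 lower in every Nras(G12D) library, 160 higher and 3 lower in Tet2(-/-), and 25 higher and 9 lower in the nonleukemic double mutant. The 72 leukemic-high tiles were thus more than those of Nras(G12D) and of the nonleukemic double mutant and fewer than those of Tet2(-/-), while the 3315 lower tiles exceeded all of these. Without leukemic replicate 2, 245 tiles met the rule and their median baseline was 42.9%, and without replicates 1 or 3 the numbers were 201 and 150.

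The gap ran from 3.01 to 25.03 points with a median of 6.83, and it was at least 5 points in 52 tiles and at least 10 in 25. Just inside the threshold were the tiles at chr9:44954000-44954999 (3.01 points), chr19:38072000-38072999 (3.23) and chr10:82329000-82329999 (3.42). Just outside were chr9:44345000-44345999 (2.98), chr13:62520000-62520999 (2.93) and chr15:76289000-76289999 (2.78). The inside tile on chromosome 19 was at 100% in the leukemic libraries and up to 96.8% in the others, so tiles near the limit include fully methylated ones. The reads over listed cytosines numbered 96300485 to 199736369 per library, and the median coverage of a tested CpG was 70 to 147 reads.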

How the data were processed

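Per the labels' protocols, DNA of sorted cells was cut with MspI, size-selected, bisulfite-converted, amplified and read from a single end. The submitters' processing notes name Bismark, without a version, and the build mm9. The authors deposited, per CpG position and strand, the coverage as a read count and the percent of reads with C and T. No listed position has under 10 reads. Methylated and unmethylated reads were recomputed here as coverage times percent, in whole reads. PCR copies count as reads, so coverage overstates molecules. A tile's level is methylated reads over all reads of its CpGs. The 72 tiles and the rules for the tiles named were chosen with earlier results of these data known. Named tiles are the 8 with at least 5 CpGs and the widest gaps, the 6 with at least 5 CpGs, all others under 10% and the highest leukemic mean, the 4 with the most CpGs, and the 3 on each side of the threshold. Tiles near placed promoters were added afterwards. Comparisons of the other groups used a quasi-binomial model on 9 libraries (6 residual degrees of freedom), dispersions moderated with limma 3.58.1 and Benjamini-Hochberg adjustment. It was tested on simulated data. Scripts ran in R 4.3.3 and Python 3.11.15, with pandas 2.3.3, numba 0.67.0, SciPy 1.17.1 and NumPy 2.4.6.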

Additional observations from a re-analysis of the deposited data

Results flagged for a closer look

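On the X chromosome, which the choice of tiles leaves out, 7 of 1727 tested tiles (0.405%) had every leukemic library at least 3 points above all 9 others. They are given because they are a signal outside the autosomal measurement. The one with the most CpGs, chrX:48558000-48558999 (45 CpGs), had a mean of 34.6% in the leukemic and 17.4% in the other libraries. The widest gap, 9.12 points, was at chrX:58963000-58963999 (6 CpGs), with 93.6% against 68.8%. Tet2(-/-) replicates 1 and 2 and the nonleukemic double mutant replicate 1 list 251 to 360 positions on the Y chromosome and the other libraries 2 to 18. The part of this difference in the X tiles was not tested.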

How the results depend on the processing

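The number of tiles stayed within 1.5 times of 72 with a coverage minimum of 20 (59, of which 57 shared), CpG levels averaged (71, 56 shared), tiles shifted by 500 bp (68), coverage thinned to be equal (74, 49 shared), a threshold of 5 points (52) and any of the 9 other libraries left out. It was 36 with at least 5 CpGs and 154 at 1 point. With single libraries left out it ran from 75 to 245, with the 3 libraries with Y chromosome reads left out it was 116, and with 3 libraries with many single-library changes left out 238. The last 2 were chosen after seeing the data. Fewer libraries make the rule easier to meet. The median baseline was 11.5% with a coverage minimum of 20, 10.6% at 1 point, 21.7% with those 3 Y-read libraries left out and 12.2% to 42.9% with single libraries left out. For 16 named tiles, 57 of 63 alternative gaps were at least 3 points, and 1 was below 0: chr8:123029000-123029999 at -3.54 when thinned, where the cause was not tested. The 63 include the gaps of all 16 tiles with the CpGs of highest coverage left out. Those equalled the main gaps and say nothing about stability. Several gaps were also unchanged with a coverage minimum of 20. Of the 72 tiles, the 3 comparisons of the other groups called 0 in all 14 alternatives each, including the fit with the replicate number as a block (0 in each). Of all tested tiles, at most 3 were called in any alternative. Numbers did not pair the 9 libraries of the other groups, the ones in these fits: correlations of same-numbered deviations ran from -0.00833 to 0.0231. The part of depth was not tested beyond thinning and the coverage minimum.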
